A study of Mus musculus with 12 samples.

Results

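The cerebellins (*Cbln1*, *Cbln2*, *Cbln3*, *Cbln4*) and the C1q-like genes *C1ql1*, *C1ql2* and *C1ql3* encode secreted proteins with a C1q domain that act at synapses. These 7 genes were taken by their symbols from the 24480 genes of the count tables. All 7 were in the tables and all 7 passed the filter on low counts in each line. RNA-seq was measured in the dorsolateral geniculate nucleus (dLGN), the visual relay nucleus of the thalamus, at postnatal day 0. The 12 libraries form 4 groups of 3, and each library is a pool of 3 animals. *Sox2* mutants were Sox2flox/flox;Ror-alphaCre, and the controls were Sox2flox/flox or Sox2flox/+ animals that had no Cre. *Nr2f1* mutants were Nr2f1 flox/flox;Ror-alphaCre. The labels of the *Nr2f1* controls name the Cre allele and then state its absence. The paper's methods describe the controls as Cre-negative littermates with floxed *Nr2f1* on both alleles or on a single one, and were followed. Cre is expressed from the *Rora* locus, where an IRES-Cre cassette sits in the 3′ untranslated region, and every mutant but no control carries it, so that effects of the Cre allele on other genes and effects of the deletion cannot be told apart.

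Cerebellins are released mainly from presynaptic terminals and bridge presynaptic neurexins and postsynaptic glutamate receptors of the type encoded by *Grid1*, a contact best known from the parallel fibre synapses of the cerebellum. Cbln4 also binds the netrin receptors Dcc and neogenin (*Neo1*). The C1q-like proteins bind the adhesion receptor Adgrb3, and at hippocampal mossy fibre synapses C1ql2 and C1ql3 recruit kainate receptors containing the products of *Grik2* and *Grik4* together with Nrxn3.

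Total counts were 45205377, 43129793 and 40306996 in the *Sox2* control libraries CTRL_1, CTRL_2 and CTRL_3, and 40321949, 43335724 and 44749867 in the *Sox2* mutant libraries MUT_1, MUT_3 and MUT_4. In the *Nr2f1* line they were 42093150, 50095344 and 46844439 in the control libraries CTRL_B, CTRL_D and CTRL_E, and 39293465, 46141304 and 45360140 in the mutant libraries MUT_A, MUT_B and MUT_C. Values of single libraries are given in these orders throughout. Levels are in CPM, counts scaled to library size with TMM normalization over the 12 libraries, and compare a gene between libraries. The targeted genes matched the labels. *Sox2* had 355, 358 and 382 CPM in the *Sox2* controls and 115, 150.2 and 150.6 CPM in the *Sox2* mutants. *Nr2f1* had 314, 373 and 383 CPM in the *Nr2f1* controls and 106, 152 and 102 CPM in the *Nr2f1* mutants. For both genes the mutant libraries of the targeted line were all lower than its controls. In the *Nr2f1* line *Sox2* also fell, from 359 ± 16.2 to 245 ± 33.9 CPM (SD, n = 3), without overlap (log2 fold change −0.55, edgeR FDR 0.00635). *Nr2f1* had 329 ± 22.8 CPM in the *Sox2* controls and 252 ± 52.0 CPM in the *Sox2* mutants. Those groups overlapped (log2 fold change −0.39, edgeR FDR 0.0559). *Rora*, which carries the Cre cassette, had a mean of 331 ± 30.7 CPM (SD, n = 3) in the *Sox2* controls and 85.2 ± 12.9 CPM in the *Sox2* mutants, and 383 ± 35.2 and 321 ± 52.8 CPM in the *Nr2f1* line. The change of *Rora* differed between these lines, which carry the same Cre allele (interaction −1.70 on the log2 scale, edgeR FDR 0.000118). Of the 7 listed markers of thalamic glutamatergic neurons, 0 were at 0 in all 12 libraries, and *Tcf7l2* was the most abundant of them.

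Each line's mutants were set against its own controls in a quasi-likelihood F-test (edgeR), and a gene was called at a Benjamini-Hochberg adjusted p (FDR) below 0.01 over all genes tested. With 3 libraries in a group, an exact permutation test of a single gene cannot give a two-sided p below 0.1. In the *Nr2f1* mutants 2 of the 7 genes were called, against 2.54% of the 15600 genes tested. Of these, 1 was higher in mutants (*Cbln4*; background 1.22%) and 1 was lower (*Cbln1*; background 1.32%). In the *Sox2* mutants edgeR called 0 of the 7, against 8.08% of 15602 genes tested (3.90% higher and 4.19% lower in mutants). At an unadjusted p below 0.05 there were 3 of the 7 in that comparison, and DESeq2 and the likelihood ratio test of edgeR each called 1, *Cbln2*. Over all genes tested these shares were 35.0%, 15.7% and 15.1%, in that order. The change in *Sox2* mutants minus the change in *Nr2f1* mutants, tested as an interaction over the 12 libraries, was called for 1 of the 7 (*Cbln4*), against 1.44% of 15989 genes. The groups did not overlap for 2 of the 7 genes in the *Sox2* line, where they did not overlap for 37.9% of all genes tested, and for 3 of the 7 in the *Nr2f1* line, against 28.7%. The median log2 fold change of the 7 was 0.38 in *Sox2* mutants and −0.11 in *Nr2f1* mutants, whereas the medians over all genes tested were 0.000497 and 0.0138.

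**Figure D1:**
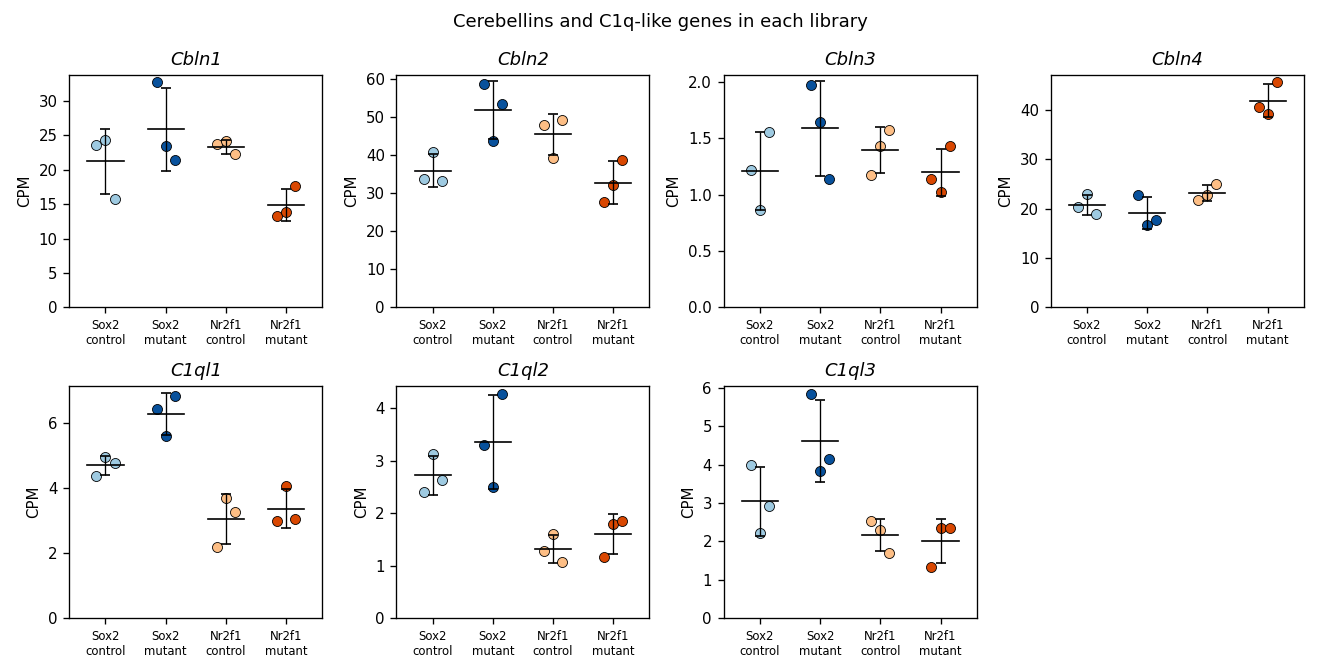
Level of each cerebellin and C1q-like gene in the 12 libraries, in CPM after TMM normalization, by group; points are libraries and bars are the mean ± SD of 3. *Cbln4* lies between 39.3 and 45.7 CPM in the *Nr2f1* mutants and between 16.8 and 25.1 CPM in the other groups.

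*Cbln4*, the cerebellin that binds Dcc and neogenin, lies on chromosome 2 of GRCm38.p6 from 172036336 to 172043466, on the minus strand. It had 21.9, 22.7 and 25.1 CPM in the *Nr2f1* controls and 40.7, 39.3 and 45.7 CPM in the *Nr2f1* mutants. All mutant libraries stood far above all control libraries, and the gap between the groups was wider than the spread inside either. *Cbln4* rose from a mean of 23.2 ± 1.66 to 41.9 ± 3.37 CPM (SD, n = 3), which is 1.80-fold (log2 fold change 0.85, SE 0.08, edgeR FDR 0.000438). The rise was called in each of 13 alternative fits of that line, including each that left out 1 library, with log2 fold changes of *Cbln4* from 0.78 to 0.91. In the *Sox2* controls *Cbln4* had 20.3, 22.9 and 18.9 CPM and in the *Sox2* mutants 22.8, 16.8 and 17.7 CPM. These libraries overlapped, and there *Cbln4* had a log2 fold change of −0.12 with an SE of 0.13 (edgeR FDR 0.540). With 1 library left out it went from −0.27 without MUT_1 to −0.04 without MUT_3, never called. The interaction was −0.97 (SE 0.16, edgeR FDR 0.00395), so the change of *Cbln4* differed between the lines in this fit. That call did not hold without any 1 of 8 libraries. Without CTRL_1, CTRL_2, MUT_3 or MUT_4 of the *Sox2* line the interaction of *Cbln4* was −0.98, −0.88, −0.87 and −0.91 (FDR 0.0122, 0.0167, 0.0107 and 0.0157). Without CTRL_B, CTRL_D, MUT_A or MUT_C of the *Nr2f1* line it was −0.91, −0.94, −0.98 and −0.89 (FDR 0.0161, 0.0182, 0.0120 and 0.0111), and over its 17 alternatives the FDR for *Cbln4* ranged from 2.6e-06 to 0.0182. In tissue of mixed cells, a change in the number of cells that express a gene and a change in the RNA per cell cannot be told apart.

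The promoter table from RefSeq (GRCm38.p6) held 4 of the 7 genes (*Cbln3*, *Cbln4*, *C1ql2*, *C1ql3*) and lacked *Cbln1*, *Cbln2* and *C1ql1*. The 250 bases before the start of *Cbln4* (chr2:172043467-172043716, minus strand) are shown because *Cbln4* was the gene of this family called in every fit of a line. They were searched on both strands for the nuclear receptor half-site AGGTCA and for the SOX motifs ACAAAG and ACAATG, which share their first 4 letters.
Cbln4: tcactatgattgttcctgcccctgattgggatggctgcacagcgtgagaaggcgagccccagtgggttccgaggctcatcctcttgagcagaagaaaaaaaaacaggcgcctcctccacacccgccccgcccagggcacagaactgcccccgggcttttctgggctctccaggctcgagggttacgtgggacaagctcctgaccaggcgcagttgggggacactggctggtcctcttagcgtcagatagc
The sequence is written 5′ to 3′, and it holds no capitals because none of these letters was in it. AGGTCA was in 14.0% of the 32851 windows of 250 bases in the table, ACAAAG in 16.5% and ACAATG in 10.7%. The 3 other windows, those of *Cbln3*, *C1ql2* and *C1ql3*, also held 0 of these motifs. A window without a motif says only that these letters are not in it.

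*Cbln1*, the cerebellin of cerebellar granule cells, is at 87468853 to 87472592 on chromosome 8, minus strand. It had 23.7, 24.1 and 22.2 CPM in the *Nr2f1* controls and 13.3, 13.9 and 17.6 CPM in the mutants. Every mutant library was below every control library, and MUT_C was the nearest to the controls. *Cbln1* fell from 23.4 ± 0.996 to 14.9 ± 2.35 CPM (SD, n = 3; log2 fold change −0.65, SE 0.11, edgeR FDR 0.00842). This call sat close to the threshold and was kept in 6 of 13 alternative fits, in which the FDR of *Cbln1* ranged from 1.12e-06 to 0.0796. It ended without CTRL_B (log2 fold change of *Cbln1* −0.64, FDR 0.0399), without CTRL_D (−0.62, FDR 0.0366) and without CTRL_E (−0.68, FDR 0.0229). It also ended without MUT_A (−0.57, FDR 0.0435) and without MUT_B (−0.60, FDR 0.0120), and it held without MUT_C (−0.78, FDR 0.00200). In the *Sox2* line *Cbln1* had 23.6, 24.3 and 15.8 CPM in controls and 32.8, 23.4 and 21.5 CPM in mutants. The groups overlapped there, with CTRL_3 low and MUT_1 high. *Cbln1* was not called in *Sox2* mutants, at 0.28 on the log2 scale with an SE of 0.19 (edgeR FDR 0.341). That value went from 0.08 without MUT_1 to 0.40 without MUT_4. Over all 14 alternatives it went from 0.08 to 0.52, and 1 of them called *Cbln1* (FDR 0.00243 to 0.803). The interaction of *Cbln1*, 0.93 with an SE of 0.25 (edgeR FDR 0.0604), was not called by edgeR either. It was called in 1 of 17 alternatives, DESeq2 (FDR over the alternatives 0.00483 to 0.153).

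**Figure D2:**
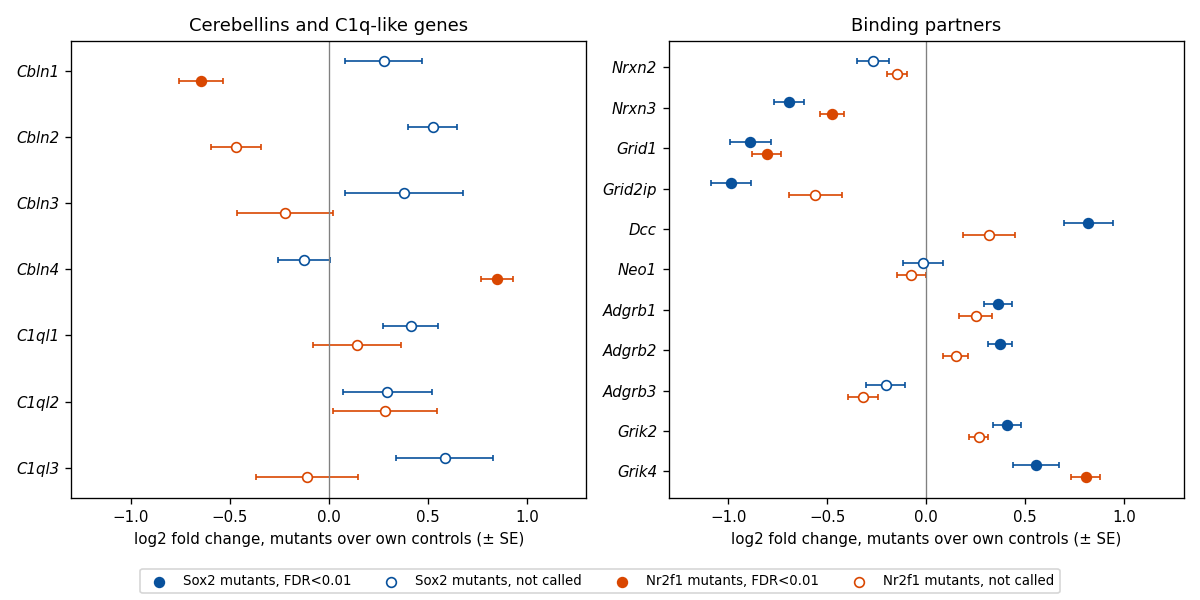
Log2 fold change of mutants over the controls of their own line, with SE. The cerebellins and C1q-like genes are on the left, and the listed binding partners and related genes on the right. Filled points are called by edgeR at FDR<0.01. *Cbln1* and *Cbln4* are the filled points on the left, at −0.65 and 0.85 in *Nr2f1* mutants.

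*Cbln2*, which also joins neurexins to the product of *Grid1*, lies on chromosome 18 from 86711061 to 86718283. It had 33.7, 40.8 and 33.2 CPM in the *Sox2* controls and 58.6, 43.6 and 53.4 CPM in the *Sox2* mutants. In the *Nr2f1* line the controls had 47.9, 39.2 and 49.2 CPM of *Cbln2* and the mutants 27.6, 32.0 and 38.8 CPM. In neither line did the groups overlap, with mutants above controls in the *Sox2* line and below them in the *Nr2f1* line, where CTRL_D and MUT_C came close. On the log2 scale the change of *Cbln2* was 0.52 with an SE of 0.12 in the *Sox2* line (edgeR FDR 0.0162). In the *Nr2f1* line it was −0.47 with an SE of 0.13 (edgeR FDR 0.0541), and neither was called. DESeq2 called both, with FDR 0.000540 in *Sox2* mutants (5 of 14 alternatives called *Cbln2*, FDR 9.02e-05 to 0.0663) and 0.00115 in *Nr2f1* mutants (2 of 13, FDR 0.00115 to 0.258). The interaction of *Cbln2* was 1.00 (SE 0.19, edgeR FDR 0.0111), just short of the threshold, and it was called in 7 of 17 alternatives (FDR 2.91e-05 to 0.0349). Leaving out MUT_3 gave a call for *Cbln2* in *Sox2* mutants (log2 fold change 0.64, FDR 0.00579), and leaving out that library or MUT_C of the *Nr2f1* line gave one for the interaction (1.12 and 1.15, FDR 0.00521 and 0.00414).

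*Cbln3*, on chromosome 14 from 55878920 to 55884256, encodes a protein that in the cerebellum is secreted only together with Cbln1. It lay between 0.864 and 1.98 CPM over the 12 libraries, from 37 to 82 counts. Its groups overlapped in both lines. The log2 fold changes of *Cbln3* were 0.38 (SE 0.30) in *Sox2* mutants and −0.22 (SE 0.24) in *Nr2f1* mutants, with edgeR FDR 0.396 and 0.627. Single libraries moved both values of *Cbln3*, to between 0.19 (without CTRL_2) and 0.60 (without CTRL_3) in the *Sox2* line and between −0.37 (without MUT_C) and −0.12 (without MUT_B) in the other. Whether a change of that size could be detected at these counts was not tested.

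The ratio of the CPM of *Cbln4* to that of *Cbln1*, a description chosen after the values were seen, was taken in each library. It is not corrected for transcript length, so it compares libraries and does not say which gene had more transcripts. It was 0.922, 0.943 and 1.13 in the *Nr2f1* controls and 3.07, 2.83 and 2.59 in the *Nr2f1* mutants. In the *Sox2* line it was 0.861, 0.942 and 1.19 in controls and 0.694, 0.717 and 0.824 in mutants. The *Nr2f1* mutants stood apart from the other 9 libraries, and the *Sox2* mutants lay below the *Sox2* controls. The ratio of *Cbln4* to *Cbln2* was 0.457, 0.580 and 0.510 in *Nr2f1* controls and 1.47, 1.23 and 1.18 in *Nr2f1* mutants. In the *Sox2* line it was 0.602, 0.561 and 0.570 in controls and 0.388, 0.385 and 0.332 in mutants. For this ratio the mutants of both lines stood apart from all controls, the *Nr2f1* mutants above them and the *Sox2* mutants below them.

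**Figure D3:**
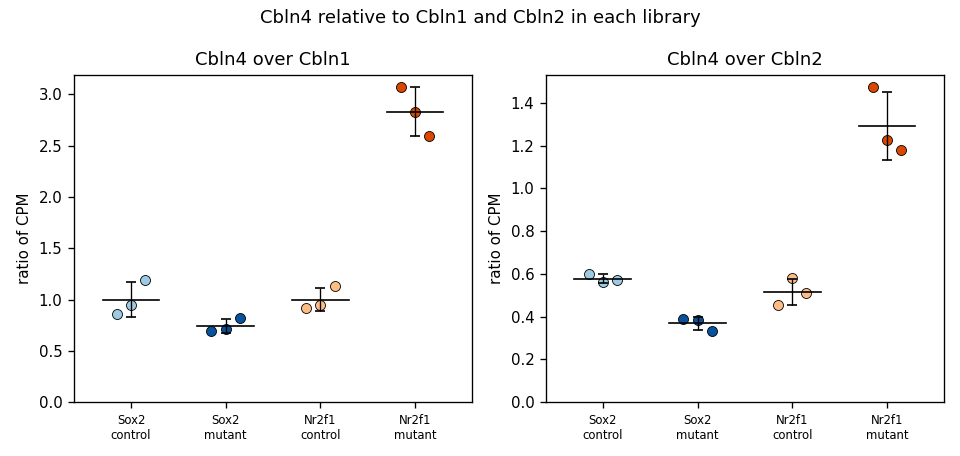
Ratio of *Cbln4* CPM to *Cbln1* CPM and to *Cbln2* CPM in each of the 12 libraries, by group; the ratios were chosen after the values were seen. The *Nr2f1* mutants lie between 2.59 and 3.07 for *Cbln4* over *Cbln1*.

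*C1ql1*, at 102939264 to 102946716 on chromosome 11, encodes the ligand that climbing fibres present to Adgrb3 on Purkinje cells. It had 4.36, 4.95 and 4.76 CPM in the *Sox2* controls and 6.41, 5.58 and 6.82 CPM in the *Sox2* mutants. All mutant libraries were above all controls, but the log2 fold change of *C1ql1*, 0.41 (SE 0.14), was not called (edgeR FDR 0.0630). *C1ql2*, at 120340582 to 120343174 on chromosome 1, lay between 2.40 and 4.27 CPM in the *Sox2* line and between 1.07 and 1.84 CPM in the *Nr2f1* line, with groups that overlapped in both. *C1ql2* had log2 fold changes of 0.30 and 0.28 in *Sox2* and *Nr2f1* mutants (SE 0.22 and 0.26, edgeR FDR 0.383 and 0.559). With 1 library left out, the value of *C1ql2* in *Sox2* mutants went from 0.08 without MUT_4 to 0.47 without MUT_3, and that in *Nr2f1* mutants from 0.16 without CTRL_E to 0.46 without MUT_A. *C1ql1* overlapped as well in the *Nr2f1* line, at 0.14 on the log2 scale (SE 0.22, edgeR FDR 0.747), and there its sign changed without CTRL_B (−0.05) or MUT_B (−0.02). The controls of the lines did not overlap in either gene, at 4.69 ± 0.303 and 3.04 ± 0.771 CPM for *C1ql1* and 2.72 ± 0.372 and 1.32 ± 0.266 CPM for *C1ql2* (SD, n = 3). This difference was not tested, and line and preparation cannot be told apart.

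*C1ql3*, at 13001887 to 13010864 on chromosome 2, overlaps the gene *Pter* in the RefSeq annotation. The deposited counts of *C1ql3* were not whole in 12 of 12 libraries, whereas the sum of *C1ql3* and *Pter* was whole, to within 0.02, in 12 of 12, so reads were divided between the 2 genes and the level of *C1ql3* is uncertain. The other 6 genes of the family had whole counts in all libraries. *C1ql3* had 4.002, 2.22 and 2.93 CPM in *Sox2* controls and 5.83, 3.84 and 4.16 CPM in *Sox2* mutants, and the groups overlapped through CTRL_1 and MUT_3. Its log2 fold change in *Sox2* mutants was 0.59 (SE 0.25, edgeR FDR 0.122), beside 0.65 for *Pter* (FDR 0.105). *C1ql3* was at −0.11 in the *Nr2f1* line on the same scale (SE 0.26, edgeR FDR 0.834), and that sign changed in 3 of 13 alternatives.

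Levels were compared between genes as CPM per kilobase of mean transcript length (GENCODE M21). In the *Sox2* controls *Cbln2* had 15.7 ± 1.87, *Cbln1* 10.1 ± 2.23 and *Cbln4* 7.13 ± 0.704 CPM per kilobase (SD, n = 3). The libraries of *Cbln1* and *Cbln4* overlapped there, and *Cbln2* stood above both. *C1ql1* followed with 3.18 ± 0.205, then *C1ql2* with 1.36 ± 0.186 and *C1ql3* with 1.20 ± 0.354, which lay within each other's spread, and *Cbln3* was last with 0.385 ± 0.109. In the *Nr2f1* controls the levels per kilobase were 19.9 ± 2.37 for *Cbln2*, 11.1 ± 0.473 for *Cbln1* and 8.01 ± 0.571 for *Cbln4*. In the *Nr2f1* mutants *Cbln2* and *Cbln4* both stood at 14.4 CPM per kilobase (SD 2.46 and 1.16), with overlapping libraries, and *Cbln1* was below them at 7.08 ± 1.12. In the *Sox2* mutants *Cbln2* was at 22.7 ± 3.34, *Cbln1* at 12.3 ± 2.87 and *Cbln4* at 6.58 ± 1.11 CPM per kilobase, the order of the controls. In all groups *C1ql1* was the fourth and *Cbln3* the lowest, and *C1ql2* and *C1ql3* overlapped.

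**Figure D4:**
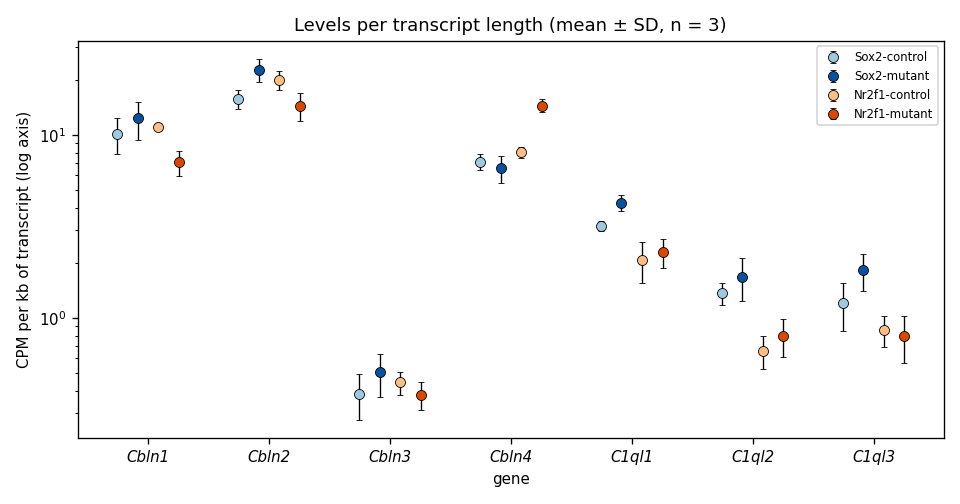
Mean level of each cerebellin and C1q-like gene per kilobase of mean transcript length (CPM per kb, ± SD of 3 libraries), by group. *Cbln2* is the highest in 3 groups, and in *Nr2f1* mutants *Cbln4* stands beside it at 14.4.

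The list called binding partners here held 11 genes, all tested. Besides partners of these proteins it holds the scaffold gene *Grid2ip* and *Adgrb1* and *Adgrb2*, which are related to *Adgrb3*. Its counts are therefore not counts of binding partners alone. In the *Sox2* mutants 5 rose and 3 fell (8.08% of all genes tested were called), and in the *Nr2f1* mutants 1 rose and 2 fell (2.54% of all). The median log2 fold change of the list was −0.02 and −0.08, and the groups did not overlap for 9 of 11 genes in each line, against 37.9% and 28.7% of all genes tested. The interaction was called by edgeR for 0 of the 11, with 3 at an unadjusted p below 0.05 and 0 by DESeq2 or the likelihood ratio test. Over all genes tested edgeR called 1.44%, with 16.2% at an unadjusted p below 0.05, 3.38% by DESeq2 and 3.10% by the other test. A difference between the lines was not shown for any gene of this list, which does not make their changes the same.

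Among the receptors of the cerebellins, *Grid1* had 98.5, 98.8 and 108 CPM in *Nr2f1* controls and 55.2, 64.4 and 54.8 CPM in *Nr2f1* mutants. In the *Sox2* line *Grid1* had 99.1, 94.0 and 77.4 CPM in controls and 46.8, 53.3 and 46.9 CPM in mutants. All mutant libraries were below all controls in both lines, and *Grid1* fell in each (log2 fold change −0.89 and −0.81, SE 0.10 and 0.07, edgeR FDR 0.000468 and 0.000348 in *Sox2* and *Nr2f1* mutants). *Grid2ip*, which encodes a postsynaptic scaffold protein, fell in *Sox2* mutants, by −0.99 on the log2 scale (edgeR FDR 0.000260). In *Nr2f1* mutants its log2 fold change was −0.56 (FDR 0.0359).

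The presynaptic neurexin *Nrxn3* had 152, 133 and 151 CPM in *Nr2f1* controls and 103, 109 and 102 CPM in *Nr2f1* mutants, without overlap. It fell in both lines, by log2 fold changes of −0.69 in *Sox2* mutants and −0.47 in *Nr2f1* mutants (SE 0.08 and 0.06, edgeR FDR 0.000360 and 0.00214). In *Nr2f1* mutants the call of *Nrxn3* ended without CTRL_B (−0.44), CTRL_E (−0.45) or MUT_A (−0.46). *Nrxn2* was called in neither line. It had log2 fold changes of −0.27 in *Sox2* mutants and −0.15 in *Nr2f1* mutants, and was called in *Sox2* mutants without CTRL_3 (−0.33).

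*Dcc*, a receptor of Cbln4, had 23.8, 23.3 and 17.6 CPM in *Sox2* controls and 40.5, 39.5 and 34.7 CPM in *Sox2* mutants, without overlap, and rose (log2 fold change 0.82, SE 0.12, edgeR FDR 0.00207). In *Nr2f1* mutants, where *Cbln4* rose, *Dcc* had a log2 fold change of 0.32 (FDR 0.172). *Neo1* had log2 fold changes of −0.02 and −0.08 in the *Sox2* and *Nr2f1* lines (edgeR FDR 0.921 and 0.572). Its sign in *Sox2* mutants changed in 5 of 14 alternatives. With 1 library left out, the value of *Neo1* in *Nr2f1* mutants went from −0.13 to −0.0025.

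Of the receptors of the C1q-like proteins, *Adgrb3* was not called in *Sox2* mutants (log2 fold change −0.20, edgeR FDR 0.164) or *Nr2f1* mutants (−0.32, FDR 0.0336). In *Nr2f1* mutants it was called without MUT_B (−0.40). With 1 library left out, the value of *Adgrb3* in *Sox2* mutants went from −0.30 to −0.13. The related *Adgrb1* and *Adgrb2* rose in *Sox2* mutants by 0.36 and 0.37 (edgeR FDR 0.00688 and 0.00352). Both calls ended without CTRL_1 (*Adgrb1* 0.33, *Adgrb2* 0.37), CTRL_2 (0.37 and 0.39), MUT_1 (0.38 and 0.37), MUT_3 (0.40 and 0.38) or MUT_4 (0.31 and 0.37). *Grik4*, a kainate receptor subunit, had 13.5, 13.6 and 13.0 CPM in *Nr2f1* controls and 23.5, 23.7 and 22.9 CPM in *Nr2f1* mutants, with little spread inside either group. It rose there by 0.81 on the log2 scale (SE 0.07, edgeR FDR 0.000348), called in 13 of 13 alternatives, and in *Sox2* mutants by 0.55 (SE 0.12, FDR 0.00993). The second call of *Grik4* ended without CTRL_1 (0.57), CTRL_2 (0.61), CTRL_3 (0.50), MUT_1 (0.48) or MUT_4 (0.54). *Grik2* rose in *Sox2* mutants by 0.41 (FDR 0.00430), a call that ended without CTRL_2 (0.38), MUT_1 (0.39) or MUT_4 (0.39), and in *Nr2f1* mutants its log2 fold change was 0.26 (FDR 0.0132).

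The other genes with a C1q domain were listed as 22, of which 21 were in the tables and 16 were tested. In *Sox2* mutants 5 rose and 1 fell, against 3.90% and 4.19% of all genes tested, with a median log2 fold change of 0.73. In *Nr2f1* mutants edgeR called 0 of the 16, against 2.54% of all genes tested, with 9 at an unadjusted p below 0.05, 3 called by DESeq2 or by the likelihood ratio test, 2 called without MUT_B, and a median of 0.40. Of all genes tested 24.6% were at that unadjusted p, and 7.10% and 6.98% were called by these tools. The complement genes *C1qa*, *C1qb* and *C1qc* rose in *Sox2* mutants by 1.26, 1.34 and 1.22 (edgeR FDR 0.000138, 0.000153 and 0.000468). *C1qa* had 10.98, 12.2 and 13.5 CPM in controls and 25.7, 32.8 and 30.1 CPM in mutants, without overlap. *C1qtnf4*, the most abundant gene of the list, fell from 217 ± 20.4 to 138 ± 6.78 CPM (log2 fold change −0.66, FDR 0.000539), and *C1qtnf5* rose by 0.93 (FDR 0.00128). The counts of *C1qtnf5* were not whole in 12 of 12 libraries, so that its level, like that of *C1ql3*, is uncertain. *Col8a1* rose by 0.84 (FDR 0.00512), a call that ended without CTRL_1 (0.90), CTRL_2 (0.80), MUT_1 (0.75) or MUT_4 (0.87). *C1ql4*, the remaining C1q-like gene, did not pass the filter and had at most 0.193 CPM in any library. *Otol1* was at 0 in all 12. The interaction was called by edgeR for 0 of these 16 genes, with 6 at an unadjusted p below 0.05, 3 by DESeq2 and 2 by the likelihood ratio test, beside 1.44%, 16.2%, 3.38% and 3.10% of all genes tested.

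Among markers of other cells, calls stand beside the 8.08% and 2.54% of all genes tested that were called in *Sox2* and *Nr2f1* mutants, and beside 1.44% for the interaction. At an unadjusted p below 0.05 the shares of all genes tested were 35.0%, 24.6% and 16.2%, with 15.7%, 7.10% and 3.38% called by DESeq2 and 15.1%, 6.98% and 3.10% by the likelihood ratio test. Groups did not overlap for 37.9% and 28.7%. The complement genes accompany microglia, and 5 of 6 microglial markers rose in *Sox2* mutants (summed level 75.3, 74.9 and 86.4 CPM in controls and 161, 178 and 183 CPM in mutants; *Csf1r* the most abundant), whereas edgeR called 0 of 6 in *Nr2f1* mutants (57.5, 62.4 and 64.4 CPM and 82.9, 71.3 and 93.6 CPM), with 3 at an unadjusted p below 0.05 and 2 by DESeq2 or the likelihood ratio test. Of 8 markers of astrocytes and radial glia, 6 rose in *Sox2* mutants (1819, 1878 and 2217 CPM and 2789, 3092 and 3227 CPM; *Fabp7* the most abundant) and 1 in *Nr2f1* mutants (1672, 1616 and 1620 CPM and 1794, 1875 and 1976 CPM). Of 10 markers of pallial and hippocampal neurons, 9 were higher in *Sox2* mutants (8 of these at an unadjusted p below 0.05; median log2 fold change of the 10, 1.17), of which 1 was called, while *Prox1* fell (summed level 120, 108 and 78.3 CPM and 221, 89.0 and 142 CPM). In *Nr2f1* mutants 4 of the 10 were higher (median −0.11) and 1 was called, *Prox1*, the most abundant, a call that ended without CTRL_B (1.05) or CTRL_D (1.00). The sum there was 98.9, 93.4 and 105 CPM in controls and 184, 156 and 152 CPM in mutants. Without *Prox1* the groups overlapped, at 45.0, 43.3 and 35.2 CPM and 39.0, 35.3 and 46.9 CPM, and in the *Sox2* line the sum without *Prox1* was 70.5, 49.8 and 35.1 CPM and 192, 62.6 and 112 CPM. The interaction was called by edgeR for 3 of 6 microglial markers, 1 of 10 pallial markers and 0 of 8 astrocyte markers (6 at an unadjusted p below 0.05, 1 by DESeq2 and 0 by the likelihood ratio test). MUT_1 of the *Sox2* line was the highest library for the pallial sum and also for *Cbln1*, *Cbln2*, *Cbln3* and *C1ql3*. Without it the log2 fold change in *Sox2* mutants was 0.08 for *Cbln1*, 0.43 for *Cbln2*, 0.20 for *Cbln3* and 0.39 for *C1ql3*. The part of these cells in the levels of the cerebellins was not tested. None of the listed markers of any cell type was at 0 in all 12 libraries.

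For the remaining marker lists, calls are those of edgeR, other tools are DESeq2 and the likelihood ratio test of edgeR, and a gene named in parentheses is the most abundant of its list. Of 7 thalamic markers 1 rose and 3 fell in *Sox2* mutants (1806, 1659 and 1416 CPM and 1486, 1473 and 1473 CPM). *Tcf7l2*, the most abundant, weighs most in that sum and was not called there (log2 fold change 0.12, FDR 0.452). *Gbx2* rose by 1.67 (FDR 0.000206). *Slc17a6*, *Lef1* and *Lhx9* fell, by −0.96, −0.91 and −0.43 (FDR 0.000336, 0.000191 and 0.00619). These calls were not followed through the alternatives. In *Nr2f1* mutants 1 thalamic marker rose and 1 fell (1851, 1739 and 1917 CPM and 1911, 1979 and 1717 CPM), where DESeq2 called 5 and the likelihood ratio test 6. Of 5 general neuronal markers, among which *Tubb3* was the most abundant, 1 fell in *Sox2* mutants (4924, 5043 and 4286 CPM and 4351, 4187 and 3959 CPM) and 0 were called in *Nr2f1* mutants (5030, 4991 and 5167 CPM and 4524, 4864 and 4394 CPM), with 2 at an unadjusted p below 0.05 and 1 by each other tool. All 11 GABAergic and interneuron markers were higher in *Sox2* mutants (165, 194 and 142 CPM and 278, 226 and 247 CPM; *Gad1*), with 11 at an unadjusted p below 0.05 (35.0% of all genes tested), 10 whose groups did not overlap (37.9% of all), 7 called by DESeq2, 5 by the likelihood ratio test and 1 by edgeR. That gene, *Otx2* (0.48, FDR 0.00856), was not called without CTRL_1 (0.44), CTRL_2 (0.47), MUT_1 (0.48) or MUT_4 (0.39). All 11 markers were also higher in *Nr2f1* mutants (median log2 fold change 0.52, beside 0.61 in *Sox2* mutants), with 1 whose groups did not overlap. Of these markers 0 were called in *Nr2f1* mutants (177, 185 and 168 CPM and 252, 175 and 327 CPM), with 7 at an unadjusted p below 0.05 and 1 by each other tool. Of 8 oligodendrocyte lineage markers 1 rose in each line, *Mbp* (616, 609 and 744 CPM and 780, 758 and 891 CPM in the *Sox2* line, 543, 523 and 556 CPM and 571, 610 and 603 CPM in the *Nr2f1* line; *Olig1*). In *Sox2* mutants 5 were at an unadjusted p below 0.05 and 3 were called by each other tool, and the call of *Mbp* (0.80) ended without CTRL_1 (0.92), CTRL_2 (0.83), MUT_1 (0.68) or MUT_4 (0.80). Of 5 tested habenular markers 1 fell in *Sox2* mutants, *Chrna3*, the most abundant. The other 4 were higher and not called (median log2 fold change of the 5, 0.68). In *Nr2f1* mutants 0 were called, with 1 at an unadjusted p below 0.05 and 1 by each other tool. Over the 6 listed genes the sum was 18.6, 20.8 and 17.1 CPM in *Sox2* controls and 17.2, 13.6 and 16.8 CPM in mutants. In the *Nr2f1* line it was 24.9, 19.4 and 17.3 CPM in controls and 19.5, 22.5 and 18.2 CPM in mutants. Of these 6 genes, 4 were below a mean of 1 CPM. Of 5 endothelial markers 0 were called in either line (261, 273 and 405 CPM and 360, 468 and 423 CPM in the *Sox2* line, 251, 304 and 260 CPM and 395, 298 and 423 CPM in the *Nr2f1* line; *Cldn5*), with 4 and 5 at an unadjusted p below 0.05 and 0 and 2 by each other tool. Of 5 meningeal markers 0 were called in either line (884, 883 and 1794 CPM and 1361, 3114 and 1624 CPM, then 693, 1005 and 1052 CPM and 1888, 1002 and 2320 CPM; *Col3a1*), with 2 and 5 at an unadjusted p below 0.05, 0 and 0 by DESeq2, and 0 and 3 by the likelihood ratio test.

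The labels give no sex for the pooled animals, and the summed level of 4 male-specific genes was 44.0, 69.7 and 98.2 CPM in the *Nr2f1* controls and 0, 32.8 and 52.5 CPM in the *Nr2f1* mutants. In the *Sox2* line it was 33.1, 112 and 36.0 CPM in controls and 109, 67.8 and 53.9 CPM in mutants. When that level entered the fit as a covariate, which was chosen after seeing the data, *Cbln4* was still called in *Nr2f1* mutants (log2 fold change 0.90, edgeR FDR 0.00675; range over its alternatives 4.93e-17 to 0.00675). *Cbln1* was not (−0.54, FDR 0.0796; range 1.12e-06 to 0.0796). The covariate also ended the calls of *Nrxn3* and *Prox1* in *Nr2f1* mutants (log2 fold change −0.47 and 0.94) and those of *Adgrb1* (0.36), *Adgrb2* (0.36), *Grik2* (0.42), *Grik4* (0.50), *Col8a1* (0.83), *Otx2* (0.49) and *Mbp* (0.74) in *Sox2* mutants.

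For each of the 7 genes, the 3 genes with the most similar pattern were found among 15988 others by Pearson r of log2 CPM over the 12 libraries, after subtraction of the mean of each line. This is a description, since the libraries share the genotype groups. They were *Ripply2* (0.942), *Ccdc136* (0.941) and *Mpped2* (0.922) for *Cbln4*. They were *D1Ertd622e* (0.950), *Prrt2* (0.905) and *Clmn* (0.898) for *Cbln1*, and *Rorb* (0.909), *Rgs2* (0.908) and *Stac* (0.901) for *Cbln2*. For *Cbln3* they were *Ppih*, *Sytl2* and *Gm3219* (r 0.874 to 0.851), for *C1ql1* *Ddt*, *Itgax* and *Blnk* (0.954 to 0.883), for *C1ql2* *Tesc*, *Slc25a40* and *Mab21l2* (0.907 to 0.886), and for *C1ql3* *Vps29*, *Emx1* and *Tmem126a* (0.894 to 0.889). Ranked by Spearman's rho, 1 of the 3 was again among the closest 3 for *Cbln1*, *Cbln2*, *Cbln3*, *Cbln4* and *C1ql1*, and 0 for *C1ql2* and *C1ql3*.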

How the data were processed

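The values used are the expected counts per gene from RSEM that the authors deposited, 1 table for each line, without normalization. Of these values 7.77% were not whole, and all were rounded before testing. The submitters' processing notes name STAR and the build mm10, and the versions of STAR and RSEM are not given in the sources used here. Libraries were assigned to groups by their column names. MUT_4 of the *Sox2* line and the letters of the *Nr2f1* line match no sample number, so columns were not tied to single samples. Low counts were removed with filterByExpr (minimum count 10, minimum total count 15), followed by TMM normalization and a quasi-likelihood F-test (edgeR 4.0.16, R 4.3.3), with Benjamini-Hochberg adjustment over all genes tested. The interaction of line and genotype was fitted over the 12 libraries. The tests were checked on simulated counts.

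The members and lists were chosen with earlier results of these data known. Named genes are the 7 members, the targeted genes, every binding partner listed here, each other C1q-domain gene called in a line, the 3 genes most like each member, and the most abundant gene of each cell type marker list. *Rora*, *Pter*, *C1ql4*, *Otol1*, *Otx2*, *Mbp*, *Gbx2*, *Lef1*, *Lhx9* and the markers whose change differed between the lines were named after their values were seen. Some genes of the lists are not reported here and do not enter the lists' counts and sums.

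The alternatives were no filter, a minimum of 10 counts in each library, normalization by the upper quartile, DESeq2 1.42.0, the likelihood ratio test of edgeR, FDR<0.05, one fit over the 12 libraries, the replicate number as a block in the *Sox2* line, and leaving out each library in turn. Levels per length were also taken with the longest transcript, which left every rank among the members as it was, and likeness also by Spearman's rho. A covariate of male-specific genes was added after seeing the data. Positions and promoters are from RefSeq (GRCm38.p6), and lengths from GENCODE M21.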

Additional observations from a re-analysis of the deposited data

Results flagged for a closer look

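For 6 genes named in the lists, the change in *Sox2* mutants differed from that in *Nr2f1* mutants by the interaction test of edgeR over the 12 libraries (FDR<0.01). With the *Nr2f1* change subtracted from the *Sox2* change, the log2 difference was −0.97 for *Cbln4* (FDR 0.00395). Among markers it was −0.91 for *Slc17a6* (FDR 0.00467) and −1.93 for *Prox1* (FDR 9.85e-05), and for the microglial genes 0.69 for *Cx3cr1* (FDR 0.00402), 1.48 for *P2ry12* (FDR 0.000419) and 1.32 for *Trem2* (FDR 0.00264). When 1 library was left out, *P2ry12* and *Prox1* were called in 12 of 12 fits. *Trem2* was called in 10, and from the *Sox2* line the loss of CTRL_2 (1.27) or MUT_4 (1.29) ended its call. *Cbln4* was called in 4, as given with its values. The call of *Cx3cr1* ended without CTRL_1 (0.70), CTRL_2 (0.65), MUT_1 (0.70), MUT_4 (0.64), CTRL_B (0.70), CTRL_D (0.71), CTRL_E (0.68), MUT_A (0.66) or MUT_B (0.65). That of *Slc17a6* ended without any 1 of the same 9 libraries (−0.78, −0.93, −0.93, −0.88, −0.95, −0.81, −0.95, −0.85 and −0.86) or MUT_3 (−0.90). Whether the difference in *Cbln4* has a part in common with those of the marker genes was not tested.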

How the results depend on the processing

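Of 1054 planned comparisons of a result with an alternative, 863 kept their direction and their side of the threshold (or, for counts, stayed within 1.5 times) and 14 changed sign. Of 57 added after seeing the data, 43 kept them and 1 changed sign. Where a value changed, the cause was not tested.

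In the *Sox2* line, the genes called over all genes numbered 2452 with DESeq2, 2351 with the likelihood ratio test, 3095 at FDR<0.05 and 2075 in one fit over the 12 libraries, and 494 to 2161 when 1 library was left out (554 without CTRL_1, 494 without CTRL_2, 2161 without CTRL_3, 495 without MUT_4). Of the 7 cerebellins and C1q-like genes, 1 was called with no filter, DESeq2, the likelihood ratio test or FDR<0.05, namely *Cbln2* (0.53, 0.53, 0.52 and 0.52), and 0 to 1 when 1 library was left out (*Cbln2* 0.43 to 0.64). Binding partners called were 4 with the covariate and 4 to 8 when 1 library was left out (5 without CTRL_1, 4 without CTRL_2, 4 without MUT_1, 4 without MUT_4). *Neo1* changed sign with normalization by the upper quartile (0.0283) and when 1 library was left out (−0.112 to 0.0586). With the replicate number as a block, 2 of the 7 genes were called, *Cbln1* (0.52) and *Cbln2* (0.59), binding partners called were 5, without *Adgrb1* (0.32), *Adgrb2* (0.39) and *Grik2* (0.36), *Otx2* was not called (0.39), and *Neo1* was at 0.0757. The labels do not say that libraries with the same number belong together. Only 2 numbers are shared by a control and a mutant there, and the deviations of those libraries from their group means correlated across genes at 0.178 and 0.137, genes not being independent replicates. In the *Nr2f1* line only 1 letter is shared, so no paired analysis was possible there.

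In the *Nr2f1* line, the genes called numbered 1108 with DESeq2, 1089 with the likelihood ratio test, 1154 at FDR<0.05, 71 with the covariate, and 133 to 868 when 1 library was left out (144 without CTRL_B, 169 without CTRL_D, 179 without CTRL_E, 133 without MUT_A, 868 without MUT_B, 226 without MUT_C). Binding partners called were 6 with DESeq2, the likelihood ratio test or FDR<0.05. *Cbln2* was called with DESeq2 (−0.48) and the likelihood ratio test (−0.47). Of the 7 genes, 1 was called in one fit over the 12 libraries and 1 with the covariate, where *Cbln1* was at −0.65 and −0.54 and not called, and 1 to 2 when 1 library was left out (*Cbln1* −0.78 to −0.57). *Cbln4* was called in 13 of 13 alternatives. Small changes that were never called changed sign when 1 library was left out, for *C1ql1* (−0.0463 to 0.30) and *C1ql3* (−0.26 to 0.11), and *C1ql3* was at 0.15 with the covariate.

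For the difference between the mutants, the genes called numbered 540 with DESeq2, 496 with the likelihood ratio test, 538 at FDR<0.05, and 133 to 308 when 1 library was left out (133 without CTRL_2 and 148 without MUT_4 of the *Sox2* line, 139 without CTRL_D and 135 without MUT_A of the *Nr2f1* line). Of the 7 genes, 3 were called with DESeq2 and 2 with no filter, a minimum of 10 counts in each library, normalization by the upper quartile, the likelihood ratio test or FDR<0.05, and 0 to 1 when 1 library was left out. The interaction of *Cbln2* was called in each of these, at 1.01 with DESeq2 and 0.99, 1.00, 1.03, 1.00 and 1.00 in the others in that order, and at 0.90 to 1.15 when 1 library was left out. *Cbln1* was called with DESeq2 (0.94). When 1 library was left out, *Cbln4* was at −1.11 to −0.87, called in 4 of 12, and *C1ql2*, never called, at −0.19 to 0.20.

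Over all genes tested the median SE was 0.109 (*Sox2* line) and 0.0947 (*Nr2f1* line), against 0.30 and 0.24 for *Cbln3*.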
